A study of Mus musculus with 11 samples.

Results

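STAT5A peaks that lay on H3K4me3 regions in the mouse mammary gland at day 6 of pregnancy are described here. The peaks were chosen by position alone: a deposited STAT5A peak was counted when it shared at least 1 bp with a deposited H3K4me3 region on chromosomes 1 to 19. Of the 8735 STAT5A peaks on these chromosomes, 1787 met this rule, an observed share of 20.5% (exact Clopper-Pearson 95% interval 19.6 to 21.3). They lay on 1709 of the 14296 H3K4me3 regions, or 12.0% (11.4 to 12.5). These overlapping positions chose the peaks, so both shares are a description with no test. No peak could touch more than 1 region, because peaks were 215 bp wide and regions at least 501 bp apart. All intervals given are 95% and cover counting error only.

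The series followed wild-type mice of the mixed background 129SV::FVB/N::C57BL/6 through pregnancy to parturition, and its title concerns how STAT5 is recruited to mammary genes before they gain H3K4me3. Both assays used here were ChIP-seq of whole mammary gland tissue at day 6, with no treatment named, and each is 1 library of the 11 samples described, with the number of animals behind it not stated in the labels. No value therefore has a replicate check, and p-values were not computed. Whole tissue pools the chromatin of epithelium, fat, vessels and immune cells, so a peak and the region under it may come from different cells. The markers that define the gland's cell types could not be read from peaks without gene annotation, so the tissue label was not checked.

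STAT5A is a transcription factor that is phosphorylated when prolactin binds its receptor, and it then enters the nucleus and binds DNA as a dimer. It is required for alveolar development in pregnancy and for milk protein gene expression. H3K4me3, trimethylation of lysine 4 on histone H3, is deposited mostly around the start sites of active or poised genes, whereas many enhancers carry little of it. A STAT5A peak on such a region can therefore lie near a promoter. Which genes lie at the peaks described below was not analysed here, because no gene annotation of the build mm9 was used.

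The strongest STAT5A peaks on H3K4me3 regions stood in very different kinds of region. Each peak carries the authors' score, which ranks peaks within the list and whose scale the sources used here do not name. The highest score on a region, 39, belonged to the peak at chr9:107198880-107199094 (mm9, counted from 1), which ranked 10 among all 8735 peaks. Its region, chr9:107198444-107202682, was 4239 bp wide with an H3K4me3 score of 678.8, at percentile 97.3 of all regions. The centre of the peak lay at 12.8% of the region's width, counted from the lower coordinate. The next, chr16:23988607-23988821, had a score of 32.8 and ranked 15 among all peaks. It lay in a region of almost the same width, 4129 bp, with an H3K4me3 score of 587.4, and its centre lay at 49.3% of the width of chr16:23986678-23990806. These are the 2 peaks with the highest scores on H3K4me3, and both stood on wide, high-scoring regions.

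The other named high-scoring peaks stood on narrower regions, whose H3K4me3 scores ran from low to high. The peak at chr17:36368317-36368531 had a score of 24.7 on a region only 644 bp wide, whose H3K4me3 score of 48.8 stood at percentile 15.5. On chromosome 16, the peak at chr16:88563482-88563696, with a score of 20.1, shared just 33 bp with a region of 1553 bp, and its centre lay outside. The peak at chr7:146110913-146111127, with a score of 19.4, stood on a region of 958 bp at percentile 23.9 of H3K4me3 score. At chr19:44462487-44462701 a peak with a score of 19.3 shared 142 of its 215 bp with a region at percentile 35.2, and at chr3:142193098-142193312 one with a score of 19.1 shared 191 bp with a region at percentile 61.6. The regions under the peaks of this list on chromosomes 8, 11 and 13, described next, stood at percentiles 96.6, 89.7 and 73.0. Thus the regions under these 10 peaks ran from percentile 15.5 to percentile 97.3 of H3K4me3 score.

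Of the 10 named peaks, 2 lay within 1 Mb of the first or last coordinate listed on their chromosome. The peak at chr11:3023837-3024051, with a score of 22.6 on a region of 1381 bp, was 21.9 kb from the first coordinate that either list holds on chromosome 11, with another STAT5A peak 1.66 kb away. The peak at chr13:120276493-120276707, with a score of 20.8, was 5.01 kb from the last coordinate listed on chromosome 13, with another peak 2.07 kb away. A further peak of the 10, chr8:20020315-20020529, was not at a chromosome end. It lay 16799.5 kb from the first coordinate listed on chromosome 8 and 111190 kb from the last. It had a score of 20.7 and a region at percentile 96.6 that was only 1008 bp wide. Of all 1787 peaks on regions, 46 lay within 1 Mb of a chromosome's first or last listed coordinate. With 1 Mb at both ends of each chromosome left out, the median score of peaks on regions was again 5.4. Leaving out so few peaks could hardly move that median, so it does not bear on the peaks named here.

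**Figure D1:**
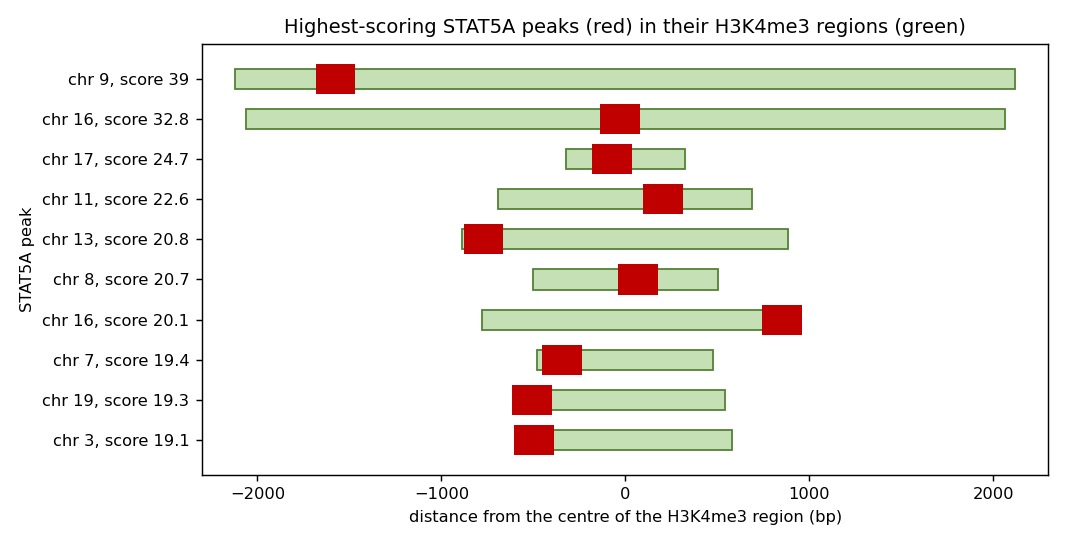
The 10 STAT5A peaks with the highest scores on H3K4me3 regions that are named (red, 215 bp each), drawn to scale in their regions (green), with the distance from the region's centre in bp on the x axis and 1 region per row. The top pair stood on regions of 4239 and 4129 bp, while the other regions were between 644 and 1773 bp wide. In 4 rows the peak's centre lay in the outer 10% of the region at one end or beyond the border. Of all 1787 peaks on regions, 329 (18.4%) had their centre so placed. The 10 rows were not tested against that share.

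Few peaks with high scores were found on H3K4me3. Only 8 of the 116 peaks with a score of 20 or more lay on a region, 1 of them on chromosome 18 and not named. The median score of peaks on regions was 5.4, with quartiles at 4.8 and 6.7, and the highest score was 7.22 times the median. Off regions the median was 6.2, and the quartiles stood at 5.1 and 8.4. A score of 8.1, the upper quartile of all peaks, was reached by 238 of the 1787 peaks on regions (13.3%, interval 11.8 to 14.98) and by 1950 of the 6948 peaks off them (28.1%, 27.0 to 29.1). For a score of 11.1, the 90th percentile, the shares were 3.92% (3.07 to 4.92) and 11.8% (11.1 to 12.6). These intervals do not overlap. The median was lower on regions than off them on each of the 19 chromosomes, between 5.1 and 5.9 against 5.9 to 6.5. Peaks of 1 library are not replicates, so this is a description of that library.

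Most of the peaks counted lay wholly within their region. The whole peak was inside in 1517 of 1787 cases (84.9%, interval 83.1 to 86.5), at least 50% but not all of it in 167, and less in 103. At the limit of the rule, the peaks with the least shared sequence had 2 to 5 bp in common with a region. They were chr12:71448222-71448436 with 2 bp and a score of 4.5, chr10:94880669-94880883 with 3 bp and 6.8, chr4:49644158-49644372 with 3 bp and 5.1, chr1:60465888-60466102 with 4 bp and 7.5, and chr5:124480780-124480994 with 5 bp and 9.5. Just outside stood chr8:114062211-114062425, which abutted its region with a gap of 0 bp and had a score of 8.9. The next were chr8:46707310-46707524 with a gap of 1 bp and a score of 7, chr2:102292335-102292549 with 5 bp and 4.3, chr2:122124726-122124940 with 8 bp and 8.3, and chr13:63663768-63663982 with 9 bp and 4.8. Scores ran from 4.5 to 9.5 inside the limit and from 4.3 to 8.9 outside it. With 5 peaks on each side, these ranges cannot show whether scores differ across the limit.

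STAT5A peaks were denser close to H3K4me3 regions than far from them, and densest inside. Because the rule used the same positions, this profile is a description with no test. Peak centres numbered 4.37 per Mb (interval 4.23 to 4.52) at 10 to 100 kb from the nearest border and 6.12 per Mb (5.58 to 6.71) at 2 to 5 kb. Closer in, there were 9.35 per Mb (7.81 to 11.1) at 0.5 to 1 kb, 15.7 (12.9 to 18.9) at 250 to 500 bp and 26.04 (22.4 to 30.1) in the last 250 bp outside. The density was thus already higher in the 500 bp before the border. Zones went by peak centre, so 103 of the 186 peaks in the last 250 bp outside still shared sequence with a region. Inside, the outermost 250 bp held 62.3 centres per Mb (56.6 to 68.3), the next 250 bp 91.9 (84.2 to 100.1), and the zone at 500 to 750 bp the most of the zones used, 99.3 (89.7 to 109.8). That was 3.81 times the density just outside the border and 16.2 times that at 2 to 5 kb. Zones deeper than 500 bp take in only regions wider than 1 kb, whereas the outermost 250 bp pools all regions. Among these, regions of 501 bp, the minimum width, had 48.9 centres per Mb. The rise inward and both ratios therefore mix position with the set of regions. Deeper than 1 kb, where only regions wider than 2 kb contribute, the density was 71.6 (58.3 to 87.0) at 1 to 1.5 kb and 59.3 (41.5 to 82.1) beyond that. The interval at 1 to 1.5 kb does not overlap that of the zone at 500 to 750 bp.

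Peaks with high scores also had their highest density among the zones used at 500 to 750 bp inside, but the adjacent zones did not differ from it beyond counting error. Those with a score of 8.1 or more numbered 13.9 per Mb (10.4 to 18.1) at 500 to 750 bp inside and 1.76 (1.47 to 2.08) at 2 to 5 kb outside, a ratio of 7.91. For peaks below that score the ratio was 19.6. Outside, high-scoring peaks numbered between 1.67 and 1.88 per Mb from 10 kb to 500 bp before the border and 5.74 (4.12 to 7.79) in the last 250 bp. Inside they numbered 8.95 (6.90 to 11.4) in the outermost 250 bp, 11.1 (8.58 to 14.2) at 250 to 500 bp and 11.7 (7.47 to 17.4) at 750 bp to 1 kb. These intervals overlap that of the zone at 500 to 750 bp. There were only 3.54 (1.15 to 8.27), from 5 peaks, at 1 to 1.5 kb, and 6.59 (1.80 to 16.9), from 4 peaks, beyond that.

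**Figure D2:**
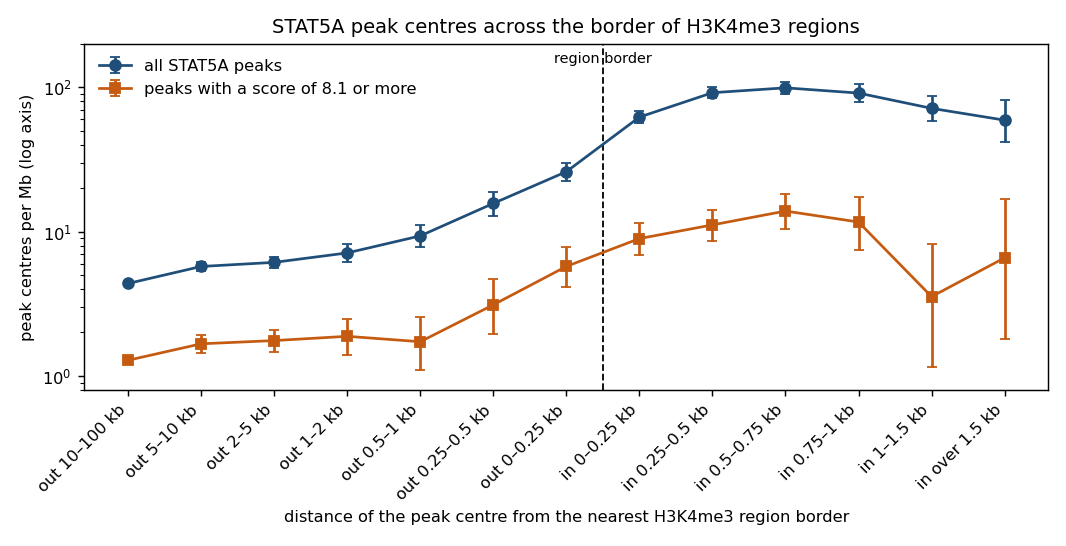
Density of STAT5A peak centres (per Mb of sequence in each zone, log axis) by distance from the nearest H3K4me3 region border, outside on the left and inside on the right, for all peaks and for those with a score of 8.1 or more; bars are 95% Poisson intervals. All peaks go from 4.37 per Mb at 10 to 100 kb outside to 99.3 per Mb at 500 to 750 bp inside. Zones deeper than 500 bp take in only regions wider than 1 kb.

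Peak scores differed with the place relative to the border. The median was 6.4 at 10 to 100 kb from a region, between 6 and 6.2 from 1 to 10 kb, and 5.7 or 5.8 in the last 1 kb outside. By centre, the last 250 bp outside again included the 103 peaks that shared sequence with a region. Within regions it was 5.6 in the outermost 250 bp, 5.4 at 250 to 500 bp, 5.3 from 500 bp to 1 kb and 5.1 at 1 to 1.5 kb. Here too, the deeper zones take in only the wider regions. The share of peaks with a score of 8.1 or more was 29.4% (27.9 to 30.8) at 10 to 100 kb. It was 22.04% (16.3 to 28.7) in the last 250 bp outside, 14.4% (11.3 to 17.99) in the first 250 bp inside and 4.95% (1.63 to 11.2) at 1 to 1.5 kb inside. Beyond 1.5 kb inside, where only 36 centres lay, the median was 5.4 and the share 11.1% (3.11 to 26.1). Across the 1684 peaks with their centre inside, score and distance to the border went together only weakly (Spearman's rho -0.07, across peaks of 1 library).

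**Figure D3:**
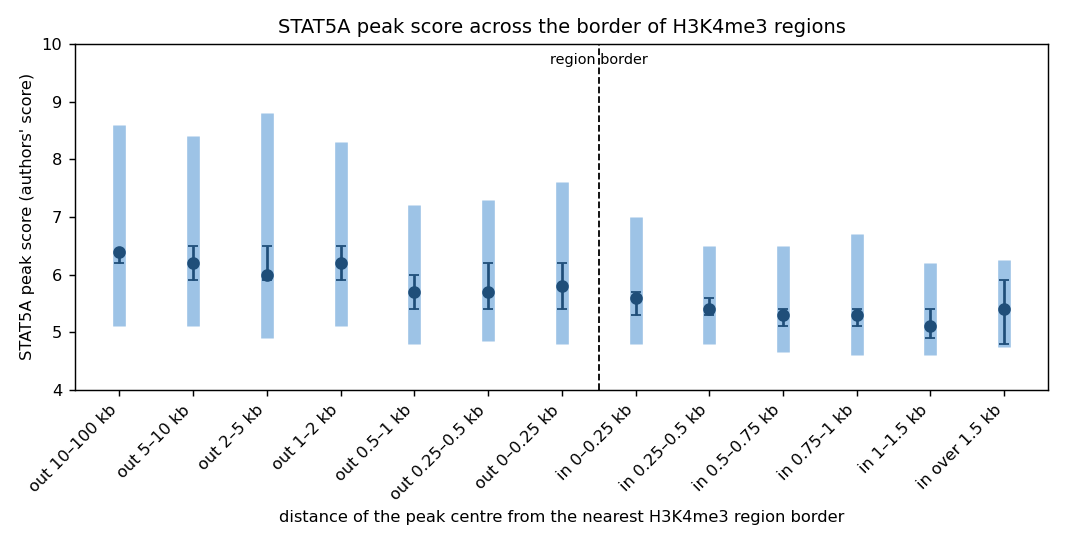
STAT5A peak score by distance of the peak centre from the nearest H3K4me3 region border; points are medians with 95% order-statistic intervals and wide bars run from the lower to the upper quartile. Medians go from 6.4 at 10 to 100 kb outside to 5.1 at 1 to 1.5 kb inside, and the upper quartile goes from 8.6 to 6.2 over the same span.

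Within their region the peak centres were spread widely, with fewer at the ends. Of the 1684 centres inside a region, 934 (55.5%, interval 53.1 to 57.9) lay in the inner 50% of its width, where an even spread would put 50%. Among peaks with a score of 6 or more the share was 52.3% (48.2 to 56.3), an interval that includes the even spread. With each region divided into 10 equal segments along the coordinates, segment 1 held 137 centres (8.14%, 6.87 to 9.54) and segment 10 held 89 (5.29%, 4.27 to 6.46), against 154 to 204 in the segments between them. Segments 3 and 7 held the most centres, 200 and 204, and segment 5 held 170, but this dip at the middle was within counting error. In regions of 1501 to 2000 bp, 59.2% (54.5 to 63.8) of 451 centres lay in the inner 50%, and in those over 3 kb 50% (42.3 to 57.7) of 174.

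The borders were not crossed equally often. A peak extended past the lower-coordinate border of its region in 168 cases and past the upper one in 102, so that 62.2% (56.1 to 68.03) of the 270 crossing peaks were on the lower side. This comparison of sides was chosen after its values were seen. In regions of 502 to 2000 bp, 130 of 188 crossing peaks were on the lower side (69.1%, 62.02 to 75.7). In narrower and wider regions it was 38 of 82 (46.3%, 35.3 to 57.7). That remainder mixed 13 lower and 20 upper crossings at 501 bp, 20 and 16 at 2001 to 2998 bp, and 5 and 8 above 3 kb. The range of 502 to 2000 bp joins the classes with the largest lower-side excess, so its interval cannot show a dependence on width. Among peaks outside with a gap under 250 bp, 68 of 139 (48.9%, 40.4 to 57.5) were on the lower side. The cause was not tested.

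Regions that held a STAT5A peak were wider and had higher H3K4me3 scores than those that held none. Their median width was 1639 bp (quartiles 1218 and 2177) against 1279 bp (817 and 1780), and their median H3K4me3 score was 326.8 (207.1 and 460) against 200.9 (75.2 and 332.3). A wide region offers more sequence for a peak to fall on, so density was also computed. In regions of 501 bp, the minimum width, there were 48.9 peak centres per Mb (34.6 to 67.1). The density was 77.7 (66.7 to 89.9) at 502 to 1000 bp, 82.8 (75.1 to 91.1) at 1001 to 1500 bp, 88.6 (80.6 to 97.2) at 1501 to 2000 bp, 82.5 (74.8 to 90.8) at 2001 to 2998 bp and 69.6 (59.6 to 80.7) above 3 kb. Over the same classes the share of regions with a peak went from 3.42% to 24.6%. Among regions above 501 bp, therefore, wider regions held a peak more often while the density stayed between 69.6 and 88.6 per Mb.

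Within each width class above 501 bp, regions with the highest H3K4me3 scores held a peak more often than those with the lowest. Regions of each width class were split into 4 equal groups by score, from group 1 with the lowest to group 4 with the highest. Among regions above 3 kb, group 1, with scores up to 458.9, held a peak in 15 of 158 cases (9.49%, 5.41 to 15.2). Group 3 did in 54 of 158 (34.2%, 26.8 to 42.1) and group 4 in 53 of 157 (33.8%, 26.4 to 41.7). For regions of 1501 to 2000 bp, the shares from group 1 to group 4 were 7.87%, 13.3%, 20.7% and 19.4%, and for 1001 to 1500 bp they were 5.86%, 9.09%, 14.2% and 14.7%. In both, the intervals of groups 1 and 4 do not overlap, and those of groups 3 and 4 do. Regions of 2001 to 2998 bp had 13.99% (11.2 to 17.2) in group 1 and 22.6% (19.1 to 26.4) in group 4, and those of 502 to 1000 bp had 4.09% (2.77 to 5.78) and 10.6% (8.50 to 13.1). Width was not fully held within a class. Median widths in groups 1 and 4 were 659 and 891 bp in the class of 502 to 1000 bp, 1186 and 1333 bp in that of 1001 to 1500 bp, 1672 and 1781 bp in that of 1501 to 2000 bp, 2245 and 2437 bp in that of 2001 to 2998 bp, and 3386 and 4222 bp above 3 kb.

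In the narrowest regions the shares did not differ by score beyond counting error. Where all regions were 501 bp wide, the shares ran between 2.58% and 3.88% over the score groups and their intervals overlapped. Scores there were low throughout, with a median of 30.1 for regions with a peak and 29.3 for those without. In centres per Mb, groups 1 to 4 of these regions had 41.2 (17.8 to 81.1), 15.4 (3.18 to 45.1), 61.7 (31.9 to 107.8) and 77.4 (43.3 to 127.6), from 3 to 15 centres each.

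Density takes the remaining difference in width into account. Above 3 kb there were 24.95 centres per Mb (13.6 to 41.9) in group 1, 104.8 (80.7 to 133.9) in group 3 and 82.6 (63.3 to 105.9) in group 4. At 1501 to 2000 bp there were 47.1 (35.9 to 60.8), 118.5 (100.4 to 139.02) and 109.4 (92.2 to 128.8) in the same groups, and at 502 to 1000 bp 45.1 (28.6 to 67.6), 91.01 (68.6 to 118.5) and 107.9 (83.8 to 136.8). In these 3 classes the density in group 4 was above that in group 1 with intervals that do not overlap.

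**Figure D4:**
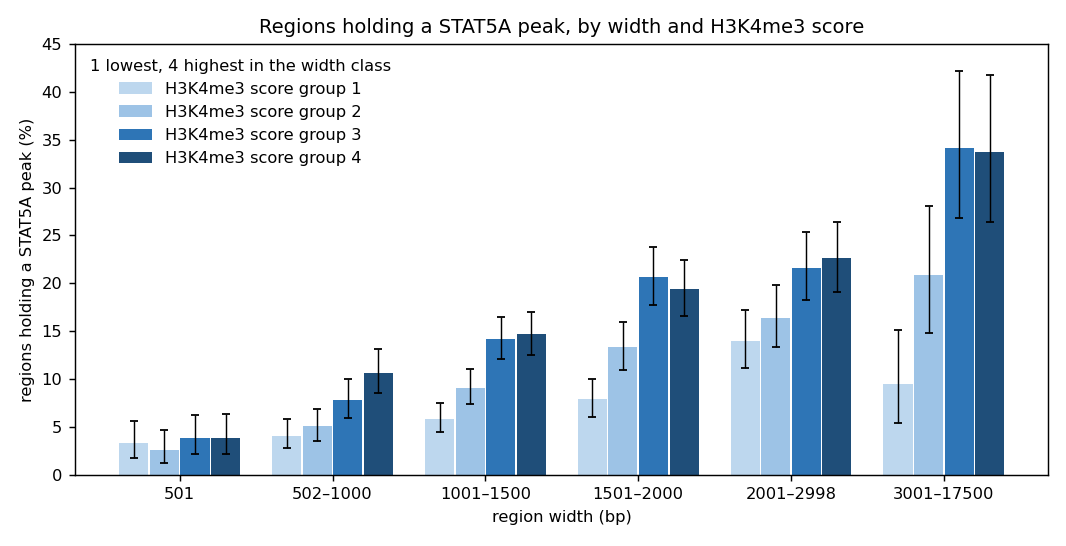
Share of H3K4me3 regions that held a STAT5A peak (%), by region width in bp and, within each width class, by score group from the lowest (1) to the highest (4) H3K4me3 score; bars start at 0 and error lines are exact 95% intervals. Shares run from 2.58% in regions of 501 bp to 34.2% in score group 3 of regions above 3 kb.

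Over all regions ranked by H3K4me3 score and divided into 10 equal groups, the density of peak centres was higher in the upper groups and nearly level among the top 4. It was 44.7 per Mb (30.98 to 62.5) in the lowest group, with scores up to 36.3, and 69.9 (59.1 to 82.1) in the sixth. In the seventh, with scores from 266.1 to 320.1, it reached 97.3 (85.04 to 110.8), and it was 94.8, 94.2 and 94.05 in the 3 groups above. The score of the STAT5A peak did not follow that of the region. Median STAT5A scores were 6.2, 5.8 and 6 in the 3 lowest groups and between 5.3 and 5.6 in the other 7. Across the 1787 peaks, rho was -0.04 with the region's H3K4me3 score and -0.02 with its width. A higher H3K4me3 score thus went with more peaks but not with higher STAT5A scores.

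The regions with the highest H3K4me3 scores that held a STAT5A peak carried peaks with scores from 5.1 to 9.4. The first was chr17:34253872-34261026, 7155 bp wide with an H3K4me3 score of 1650.4, which ranked 5 of all regions. Its single peak, chr17:34256483-34256697, had a score of 5.4, equal to the median of peaks on regions. The next, chr8:129110877-129119488, was 8612 bp wide with a score of 1510.5 and held a pair of peaks, chr8:129118383-129118597 with a score of 5.1 and chr8:129119269-129119483 with 9.4. Both stood near the upper end of that region, 3308 and 4194 bp from its centre.

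Several STAT5A peaks on 1 region were uncommon. A single peak was held by 1634 regions, 2 peaks by 72 and 3 peaks by 3, so that 153 peaks (8.56%) shared their region with another. Regions with several peaks had a median width of 2334 bp and a median H3K4me3 score of 441, against 1613 bp and 319.2 for those with 1 peak. The centres of neighbouring peaks in 1 region were 428 to 8871 bp apart, with a median of 1029 bp. In the 75 regions with several peaks, the higher score had a median of 6.7 and the lower one 4.9.

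The 3 regions with 3 peaks each stood at or above percentile 98.5 of H3K4me3 score. In chr4:94716091-94720640, 4550 bp wide with an H3K4me3 score of 1095.2 (rank 38), the peaks started at 94718670, 94719806 and 94720497 and had scores of 4.5, 8.8 and 5.1. All were above the region's centre. In chr16:4878186-4881464, 3279 bp wide with a score of 769.9, the peaks started at 4878523, 4879888 and 4880917 with scores of 5.3, 4.3 and 7.5, spread over the region. In chr14:106292743-106298701, 5959 bp wide with a score of 955.3, they started at 106292864, 106294393 and 106298138 with scores of 5.1, 6.7 and 4.3. In each of the 3 regions the highest of the scores stayed below 9.

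STAT5A peaks on H3K4me3 stood somewhat farther from other STAT5A peaks than those off it. The median distance to the nearest other peak was 39.4 kb (interval 34.7 to 43.5) on regions and 29.1 kb (27.4 to 30.8) off them. Within 10 kb of another peak lay 24.7% (22.7 to 26.7) of peaks on regions and 30.2% (29.1 to 31.3) of those off, while within 2 kb the shares were 10.5% (9.08 to 12.0) and 9.87% (9.18 to 10.6), with overlapping intervals. The nearest other peak was itself on a region for 624 of the 1787 peaks on regions (34.9%, 32.7 to 37.2) and for 16.03% (15.2 to 16.9) of those off. Leaving out the 151 peaks whose nearest neighbour was in the same region, it was 473 of 1636 (28.9%, 26.7 to 31.2). By distance to the nearest other region, a peak was held by 9.59% (7.08 to 12.6) of regions less than 1 kb from it, by 12.1% (9.40 to 15.4) at 1 to 2 kb, by 13.01% (11.1 to 15.1) at 2 to 5 kb, by 12.8% (11.8 to 13.9) at 5 to 20 kb and by 11.5% (10.8 to 12.2) at 20 kb or more. Per Mb of region there were 95.7 peaks (87.8 to 104.2) at 5 to 20 kb and 79.6 (74.7 to 84.7) at 20 kb or more, where the median widths were 1276 and 1379 bp.

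Chromosomes differed in how many of their STAT5A peaks lay on H3K4me3. The share was highest on chromosome 7, with 155 of 539 peaks (28.8%, 24.97 to 32.8), and on chromosome 11, with 179 of 642 (27.9%, 24.4 to 31.5). It was lowest on chromosome 13, with 68 of 503 (13.5%, 10.7 to 16.8), a range of 2.13 times, and the median over chromosomes was 19.3%. Chromosomes 7 and 11 also had 1.98 and 1.92 regions for each STAT5A peak, and chromosome 13 had 1.19. Chromosome 17 had the most, 2.13, with 25.7% of its peaks on regions. Over the 19 chromosomes, rho between the share of peaks on regions and the regions per peak was 0.78. Both quantities are divided by the number of peaks, so this rho cannot show a dependence. Seen from the regions, the chromosomes were more alike: 14.2% (12.1 to 16.4) of regions on chromosome 7, 14.1% (12.2 to 16.2) on chromosome 11 and 11.2% (8.76 to 14.0) on chromosome 13 held a peak. Over the 19 chromosomes that share ran from 9.73% to 14.3%, a range of 1.47 times.

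**Figure D5:**
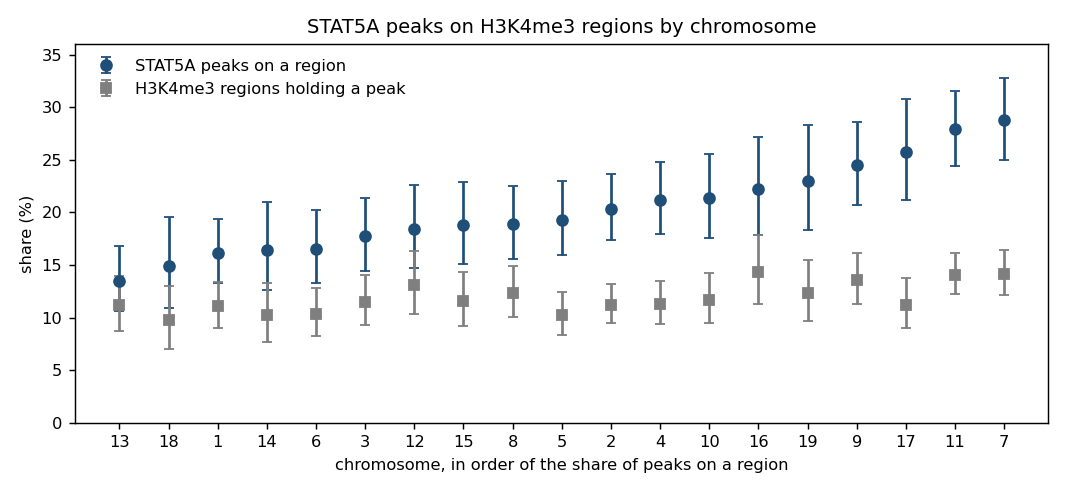
Share of STAT5A peaks that lay on an H3K4me3 region (circles) and share of H3K4me3 regions that held a STAT5A peak (squares), in %, for chromosomes 1 to 19 in order of the former; error lines are exact 95% intervals. The circles run from 13.5% on chromosome 13 to 28.8% on chromosome 7, the squares only from 9.73% to 14.3%.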

How the data were processed

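STAT5A and H3K4me3 ChIP-seq of day 6 mammary tissue, 1 library each, were used. Per the labels' protocols, frozen tissue was fixed with 1% formaldehyde for 10 min and chromatin was sheared to 200 to 300 bp. HOMER, Bowtie and CASAVA and the build mm9 are named in the submitters' processing notes, without versions, and the sources used here do not give the peak settings or say whether an input library was used. The authors' deposited lists give each peak or region a position and a score of unnamed scale. STAT5A peaks are all 215 bp wide. Neither list holds counts, so depth is unknown.

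Overlap, distances and exact Clopper-Pearson, Poisson and order-statistic 95% intervals were computed with Python 3.11.15, pandas 2.3.3, NumPy 2.4.6 and SciPy 1.17.1. Density is peak centres divided by the sequence at that distance, each base counted once toward its nearest region. Where alternative settings are compared below, density instead counts every peak that met the overlap rule, per Mb of region. At the reported setting that includes 103 peaks with their centre outside, so it is not comparable with the densities of centres. Tested on 2000 simulated peaks with known overlap, the overlap code failed 0 checks. Named are the 10 peaks on regions with the highest score, the peaks in the 3 regions with most peaks, the 3 peaks on the highest-scoring regions, and the 5 peaks nearest the limit on each side, without chromosome 18. Peaks, classes and lists were chosen with earlier results of these data known. No sequence, motif or gene annotation of mm9 was used, and the RNA-seq table at parturition and the other 8 samples were not used here.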

Additional observations from a re-analysis of the deposited data

How the results depend on the processing

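Of 58 alternatives over 8 results, 38 stayed within the reported value's interval, or within 1.5 times for the count of regions with several peaks, and 20 did not. Each of the latter kept fewer peaks or regions than the reported setting. Some of these moves were fixed by the filter. A cut on a score raises the median of that score, and a stricter overlap can only lower both shares and the density. Requiring at least 50% overlap could not change the share of centres in the inner 50%, because it kept the same 1684 centres. The counts of 38 and 20 are therefore no measure of how robust the results are. For the other moves, the reason was not tested. With at least 50% of a peak required to overlap, 19.3% of peaks lay on regions, 11.3% of regions held a peak and the density was 80.7 peaks per Mb of region, against 85.7 with any overlap. With the whole peak inside, these were 17.4%, 10.23% and 72.7, the median H3K4me3 score of regions with a peak was 346.7, and 61.6% of centres lay in the inner 50%, since peaks at the border are left out. With STAT5A scores at or above the median of 6, they were 14.7%, 4.45% and 31.1, the median STAT5A score was 7.3, 52.3% of centres lay in the inner 50% (interval 48.2 to 56.3, which includes an even spread), 12 regions held several peaks, and the nearest other peak was 76.7 kb away. With H3K4me3 scores at or above the median of 211, they were 15.3%, 17.5% and 94.5, with a median H3K4me3 score of 383.9. Without regions of the minimum width, 13.0% of regions held a peak. Including chromosome X and leaving out 1 Mb at both ends of each chromosome (added after seeing the data) moved none of the 8 results past its limit. Joining regions under 1 kb apart, run for the share of peaks on regions and the share of regions with a peak, moved neither. No paired analysis was possible because each assay has 1 library and no groups were compared. Depth is unknown, so how many weak peaks were missed was not tested.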

Other observations

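Chromosome X stood outside the rule used above. Of its 87 STAT5A peaks, 9 lay on an H3K4me3 region (10.3%, exact 95% interval 4.84 to 18.7), with scores from 4.3 to 12.6 and a median of 5.1. Of its 442 regions, 9 held a peak (2.04%, interval 0.94 to 3.83), below the lowest share of any of the other 19 chromosomes, 9.73% (interval 7.04 to 13.02). The cause was not tested.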
